A study of Rattus norvegicus with 24 samples.

Results

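miR-128 was followed through the small RNA sequencing of rat brain as every row whose name begins with rno-miR-128-, which gave 3 of the 728 miRNAs listed in both count tables. These were rno-miR-128-3p, the guide strand, and the 2 passenger arms miR-128-1-5p and miR-128-2-5p. miR-128 was selected for its level, since miR-128-3p held the largest share of miRNA reads over the series, so its rank and its level are given as a description with no test. The decrease of miR-128-3p in injured cortex was also known when it was selected. The study had picked this miRNA from the same libraries, so the p-values for that comparison are not independent evidence. The study also measured this guide strand by droplet digital PCR in the same cortical samples. Its change after injury was not statistically significant there. Most candidates with such a PCR result changed in the same direction as in sequencing, but the paper's text does not name them.

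The libraries came from adult male Sprague-Dawley rats, 3 months after either lateral fluid-percussion injury, a model of traumatic brain injury (TBI) in which a pressure pulse is delivered to the exposed dura, or a sham operation without the pulse. Perilesional cortex and ipsilateral thalamus were taken from each of 6 TBI rats and 6 sham rats, so the 4 groups held 6 libraries each and the 2 regions of a rat formed a pair. The TBI rats were those in which the study had seen chronic inflammation on magnetic resonance imaging, and they therefore do not stand for all injured rats. The samples were pieces of whole tissue, in which fewer cells of a type and less RNA per cell cannot be told apart. The miRNA reads per library ran from 744564 to 4069284 in cortex and from 523298 to 4139901 in thalamus.

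miRNAs are short RNAs cut from hairpin precursors. One arm of the duplex, the guide, is loaded into an Argonaute protein and pairs through its seed with sites in messenger RNAs, which lowers their translation or stability, whereas the other arm, the passenger, is mostly degraded. miR-128 is enriched in neurons, is made from hairpins at separate loci and is known for dampening the excitability of adult neurons in mice.

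The mature sequences are shown because they decide what the read counts can and cannot separate. They were taken from RefSeq (rat build GRCr8), where all 3 members were matched, and each is written 5′ to 3′ with the seed, bases 2 to 8, in capitals.
miR-128-3p: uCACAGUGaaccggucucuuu
miR-128-1-5p: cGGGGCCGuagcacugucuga
miR-128-2-5p: gGGGGCCGaugcacuguaaga
miR-27a-3p: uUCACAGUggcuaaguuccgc
miR-27b-3p: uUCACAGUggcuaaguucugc

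The guide sequence was identical at both loci, chr13:42251933-42251953 on the plus strand (Mir128-1) and chr8:120963807-120963827 on the minus strand (Mir128-2), so a miR-128-3p read cannot be assigned to a locus. The passenger arms differed at 5 of 21 positions and shared the seed GGGGCCG, so they are the rows that tell the loci apart. Of 693 mature miRNA names in the RefSeq table, 1 carried CACAGUG at bases 2 to 8, which was miR-128-3p itself. miR-27a-3p and miR-27b-3p, whose seeds overlap that of miR-128-3p, share with it a run of 8 bases that starts at base 1 of miR-128-3p and at base 2 of the miR-27 sequences.

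The hairpins are printed with both mature arms in capitals, the passenger first and the guide second.
Mir128-1: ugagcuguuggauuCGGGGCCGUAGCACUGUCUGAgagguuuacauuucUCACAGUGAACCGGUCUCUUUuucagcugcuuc
Mir128-2: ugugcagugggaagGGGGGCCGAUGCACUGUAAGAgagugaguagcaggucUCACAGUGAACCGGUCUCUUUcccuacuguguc

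They lie at chr13:42251884-42251965 and chr8:120963795-120963878 of GRCr8. By the gene spans of the RefSeq table, Mir128-1 lay within R3hdm1 and Mir128-2 within Arpp21, which encodes a neuronal phosphoprotein, and within the long noncoding RNA gene LOC120094269. Whether they are intronic or exonic was not analysed here.

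The level of miR-128-3p is given first as its share of all miRNA reads in a library, which needs no scaling factor. It ranked first in 12 of 12 cortex libraries and in 12 of 12 thalamus libraries. In sham cortex the share was 20.9% in the lowest rat, 27.2% at the median and 32.8% in the highest (mean 26.9% ± 4.39, SD, n = 6). In TBI cortex these values were 17.3%, 18.6% and 20.8% (mean 18.8% ± 1.39, SD, n = 6). The spread between TBI rats was narrower than that between sham rats.

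In sham thalamus the share was 11.6% in the lowest rat, 12.9% at the median and 20.6% in the highest (mean 14.0% ± 3.35, SD, n = 6). In TBI thalamus it was 8.07%, 11.3% and 15.6% (mean 11.5% ± 2.94, SD, n = 6). The order of the group means was thus sham cortex, TBI cortex, sham thalamus and TBI thalamus. The neighbours TBI cortex and sham thalamus overlapped through sham rat 55 alone, since the other 5 sham thalamus shares reached 13.8% and the lowest TBI cortex share was 17.3%. Sham and TBI thalamus overlapped with or without that rat. Counting error was small beside these spreads, since the widest 95% Wilson interval of a share was ± 0.110 percentage points (intervals cover counting error only).

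**Figure D1:**
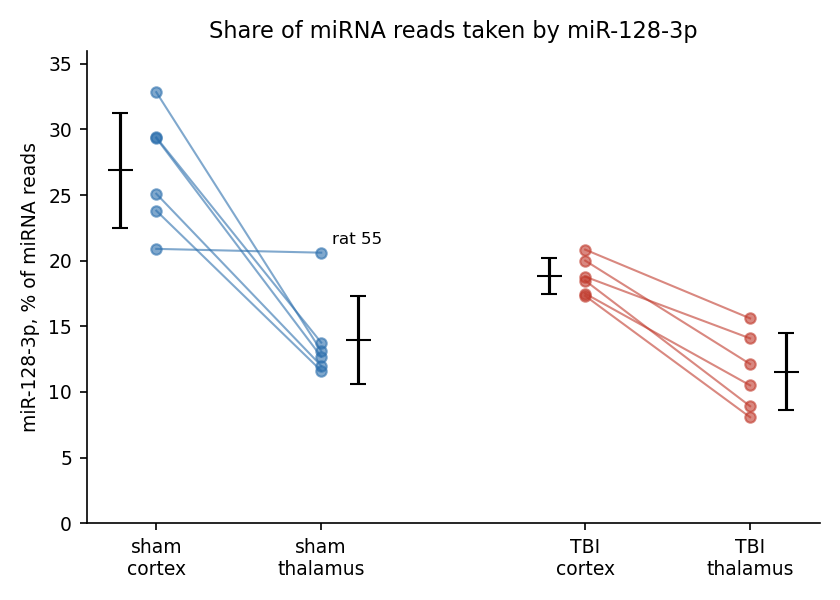
Share of miRNA reads taken by miR-128-3p (percent, vertical axis) in each library, with lines joining cortex and thalamus of the same rat; black bars show mean ± SD of 6 rats. The line of sham rat 55 is nearly flat, at 20.9% in cortex and 20.6% in thalamus, while in each of the other 11 rats the cortex point lies 4.70 to 19.7 percentage points above the thalamus point.

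Sham rat 55 stood apart from the other sham rats. Its thalamic share of 20.6% compared with 12.6% ± 0.860 (SD, n = 5) in the remaining sham thalamus libraries, of which the highest was 13.8%. Its cortical share of 20.9% was the lowest of the sham cortex group. The cortex minus thalamus difference was 0.290 percentage points in this rat and from 12.2 to 19.7 points in the other 5 sham rats.

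Its thalamic library was also the shallowest of the 24, with 523298 miRNA reads, and the next shallowest, TBI rat 56 with 538194 reads, had the highest share of the TBI thalamus group. In TBI cortex the shallowest library, rat 56 with 757810 reads, also had the highest share. In sham cortex the deepest library, rat 32 with 4069284 reads, had the highest share, 32.8%. The part of depth in these shares was not tested. On the miRNAs that differed between regions in TBI rats, the thalamic library of rat 55 did not lean towards cortex: the mean log2 level of 28 cortex-higher miRNAs minus that of 51 thalamus-higher miRNAs was -0.74, below the -0.57 to -0.23 of the other sham thalamus libraries and far below the 1.65 to 2.30 of sham cortex. Where leaving out this rat changed a call or the sign of a miR-128 value, or changed that value by over 1.5 times, the value without it is given beside the result.

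The first comparison asked whether the guide strand differed between perilesional cortex and thalamus. In both conditions miR-128-3p was higher in cortex, by 12.9 percentage points of miRNA reads in sham rats and by 7.27 points in TBI rats, and the direction was the same in 6 of 6 rats each time. The exact sign-flip permutation test over 6 rats gave p = 0.03125 in either condition, which is the smallest it can give, and 0.0536 after Benjamini-Hochberg adjustment over the 12 exact tests made on the guide and the passenger arm. The 12 include the tests of the guide for injury in cortex, where the decrease was known at selection. Their small p-values lower the adjusted p of the other exact tests, here and below. The shares of the 6 cortex libraries lay above those of the 6 thalamus libraries without overlap in both conditions, as did those of 3.73% of the 375 miRNAs tested in sham and 4.4% of the 386 tested in TBI rats. In sham rats this gap was only 0.290 points, between the cortex and the thalamus of rat 55, and without this rat the mean sham difference was 15.5 points.

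In the fit across all miRNAs by edgeR's quasi-likelihood test scaled by TMM (trimmed mean of M-values), the cortex against thalamus log2 fold change of miR-128-3p was 1.29 in sham rats (SE 0.240, adjusted p = 0.000689) and 0.73 in TBI rats (SE 0.182, adjusted p = 0.00941), corresponding to 2.44-fold and 1.66-fold. It passed the 0.05 threshold in both, as did 24.3% of the miRNAs tested in sham and 21% in TBI rats. Without rat 55 the sham value was 1.72 (adjusted p = 1.71e-06 in edgeR). With the rat as a block, the TBI value was 0.78 (adjusted p = 2.55e-05 in edgeR), and the number of miRNAs called between the regions of TBI rats rose from 81 to 150. In sham rats the number called fell from 91 to 81 with the block.

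The regional difference was described for whole classes of marker miRNAs, since the regions differ in cell makeup. Of 11 neuron-enriched miRNAs other than miR-128, 5 were higher in sham cortex than in sham thalamus and none lower (edgeR). Of all 375 miRNAs tested, 41 were higher and 50 lower. The median log2 fold change of the 11 was 0.48 beside -0.08 over all miRNAs tested. In TBI rats 6 of the 11 were higher and none lower (median 0.66 beside -0.09). Of all 386 miRNAs tested there, 30 were higher and 51 lower. The summed level of the 11 ran from 121543 to 144946 reads per 1000000 miRNA reads (CPM) in sham cortex. In sham thalamus it ran from 104799 to 132011 CPM, so the levels of the regions overlapped. Most of this sum was miR-9a-5p, with means of 98085 CPM in sham cortex and 81948 in sham thalamus. The overlap of the sum therefore does not describe the 11 as a class.

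The activity-regulated miR-132-3p showed the largest cortex excess in the neuronal list, with a log2 fold change of 1.54 in sham and 1.23 in TBI rats. miR-124-3p, the best known neuronal miRNA, had 0.25 in sham rats (adjusted p = 0.327 in edgeR) and was higher in the cortex of TBI rats by 0.65 (adjusted p = 0.0293 in edgeR).

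All 3 oligodendrocyte miRNAs, which rise as myelinating cells mature, were lower in cortex in both conditions (edgeR). Of all miRNAs tested, 50 of 375 were lower in sham and 51 of 386 in TBI rats. The 3 had median log2 fold changes of -1.75 in sham and -1.57 in TBI rats. Their summed level was 2760 to 3499 CPM in sham cortex and 11856 to 15202 CPM in sham thalamus. The part of this difference in cell makeup in the level of miR-128-3p was not tested.

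The second comparison asked whether injury changed miR-128-3p. In cortex the guide strand was lower in TBI rats: the 6 shares lay below the 6 sham shares, a pattern that 1.08% of the 371 miRNAs tested showed in this direction. The gap between the groups was narrow, 0.0574 percentage points between TBI rat 56 and sham rat 55, and the counting intervals of these libraries overlapped (20.8% to 20.9% and 20.8% to 21.0%). In edgeR the log2 fold change was -0.75 (SE 0.165, adjusted p = 0.0231), that is a level of 0.596 times sham, and 5.66% of the miRNAs tested were called in this comparison. On the TMM scale the lowest sham library, rat 55 at 203502 CPM, was below the highest TBI library, rat 56 at 212821 CPM, so the groups overlapped there. The call was lost when TBI rat 24 (adjusted p = 0.0560 in edgeR), TBI rat 45 (0.0529), sham rat 26 (0.0524) or sham rat 38 (0.0711) was left out, with log2 fold changes of -0.76 to -0.71.

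In thalamus no difference was shown. The mean share differed by -2.41 percentage points between TBI and sham rats (p = 0.223 in the two-sided exact permutation test, adjusted p = 0.243 over the 12 exact tests). The edgeR log2 fold change was -0.30 (SE 0.280, 95% interval -0.90 to 0.30, adjusted p = 0.815), and 0.513% of the miRNAs tested were called. Without rat 55 the share differed by -1.08 points (exact permutation test, p = 0.442) and the edgeR value became 0.050 (adjusted p = 0.933), so that the size of the one and the sign of the other depended on that library.

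miR-128-3p takes such a large part of the reads that scaling bears on its fold change directly, because a high share leaves fewer reads for the rest. Over 8 ways to scale the libraries, the cortical TBI against sham log2 fold change ran from -0.80 to -0.52. It was largest against the study's 4 reference miRNAs and smallest with library size alone. Over the same scalings the median over all 371 miRNAs ran from 0.0020 to 0.25. Relative to that median, the value of miR-128-3p ran from -0.82 to -0.77; a scaling factor shifts all miRNAs of a library alike, so this narrow range follows from the arithmetic and is no check on the scaling.

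The adjusted p of edgeR was under 0.05 in 7 of the 8 scalings and 0.120 with the reference miRNAs, with which 1 miRNA was called in place of 21. In thalamus the values ran from -0.32 to -0.22 and 0 of 8 scalings passed (adjusted p = 0.750 to 0.866 in edgeR). The cortex against thalamus value passed in 8 of 8 scalings in both conditions, between 0.95 and 1.51 in sham rats and between 0.70 and 0.99 in TBI rats. Relative to the median of all miRNAs these were 1.36 to 1.47 and 0.81 to 0.85.

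**Figure D2:**
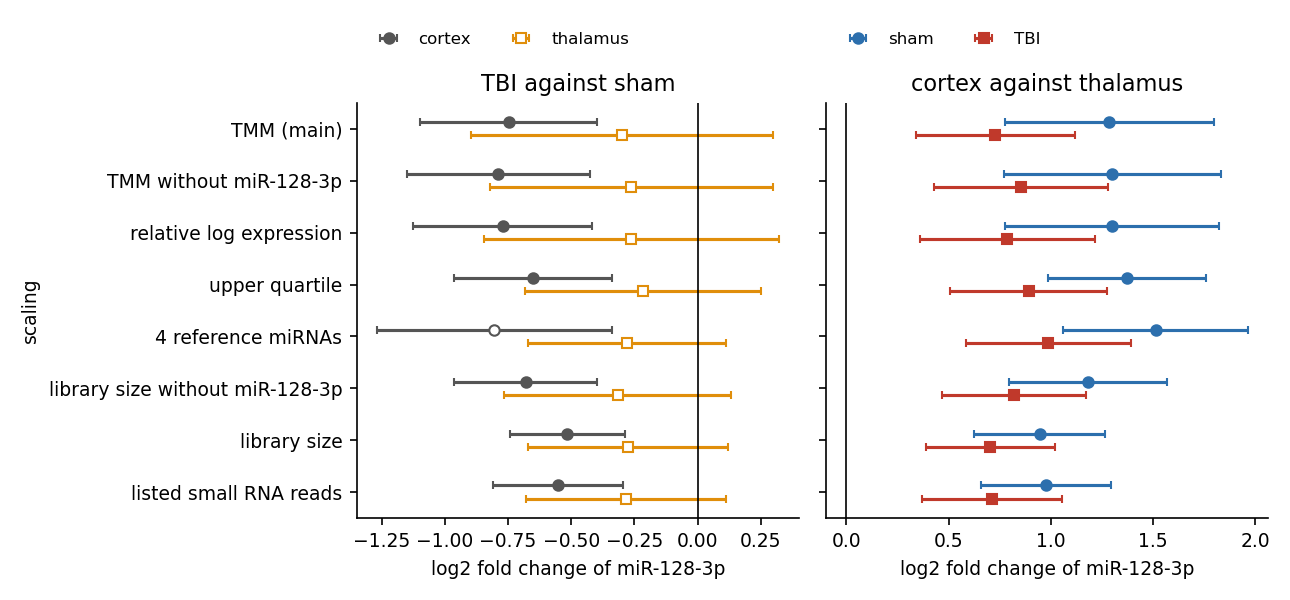
Log2 fold change of miR-128-3p in edgeR (horizontal axis) under 8 scalings (rows), for TBI against sham in each region (left) and cortex against thalamus in each condition (right); bars are 95% intervals, filled symbols have an adjusted p under 0.05 and open symbols do not. The cortical injury values lie between -0.80 and -0.52 with 7 of 8 filled, the thalamic ones between -0.32 and -0.22 with 0 of 8 filled.

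Ratios within a library need no scaling factor but depend on the miRNAs in the denominator. The ratio to the 4 reference miRNAs uses the same denominator as the reference scaling above and is not separate from it. The log2 ratio of miR-128-3p to the geometric mean of the 4 reference miRNAs (miR-330-5p, let-7b-3p, miR-3594-3p and miR-378a-3p, chosen by the study from these libraries) was 10.65 ± 0.514 in sham cortex, 9.91 ± 0.231 in TBI cortex, 9.21 ± 0.178 in sham thalamus and 8.88 ± 0.430 in TBI thalamus (SD, n = 6 each). The TBI and sham groups overlapped in either region. In thalamus the difference was -0.32, smaller in size than the SD of the TBI group and larger than that of the sham group. It was not shown by the two-sided exact permutation test (p = 0.139, adjusted p = 0.166). The cortex minus thalamus difference was 1.45 in sham and 1.02 in TBI rats, positive in 6 of 6 rats in each (exact sign-flip permutation test, p = 0.03125, the smallest possible, adjusted p = 0.0536). Between the regions miR-330-5p itself was lower in cortex (edgeR log2 fold change of -0.69 in sham rats), which moves the ratio upwards.

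The miRNAs next in abundance were used as further denominators. After miR-128-3p, whose mean share over the 24 libraries was 17.8%, came miR-9a-5p with 8.73% and miR-26a-5p with 7.11%. The log2 ratio of miR-128-3p to each of the 10 next most abundant miRNAs was lower in TBI than in sham cortex for 10 of 10, by -1.15 (miR-125b-5p) to -0.43 (miR-30d-5p), with a median of -0.58. In thalamus it was also lower for 10 of 10, by -0.66 (let-7c-5p) to -0.13 (miR-9a-5p), with a median of -0.38. These ratios share 1 numerator and are therefore not 10 separate observations, and the TBI and sham groups were without overlap for 1 of the 10 in each region.

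The same ratios were higher in cortex than in thalamus for 10 of 10 denominators, by 0.63 to 1.93 in sham and by 0.39 to 1.54 in TBI rats. The largest was against miR-181a-5p and the smallest against miR-143-3p, a miRNA of smooth muscle, in sham rats.

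**Figure D3:**
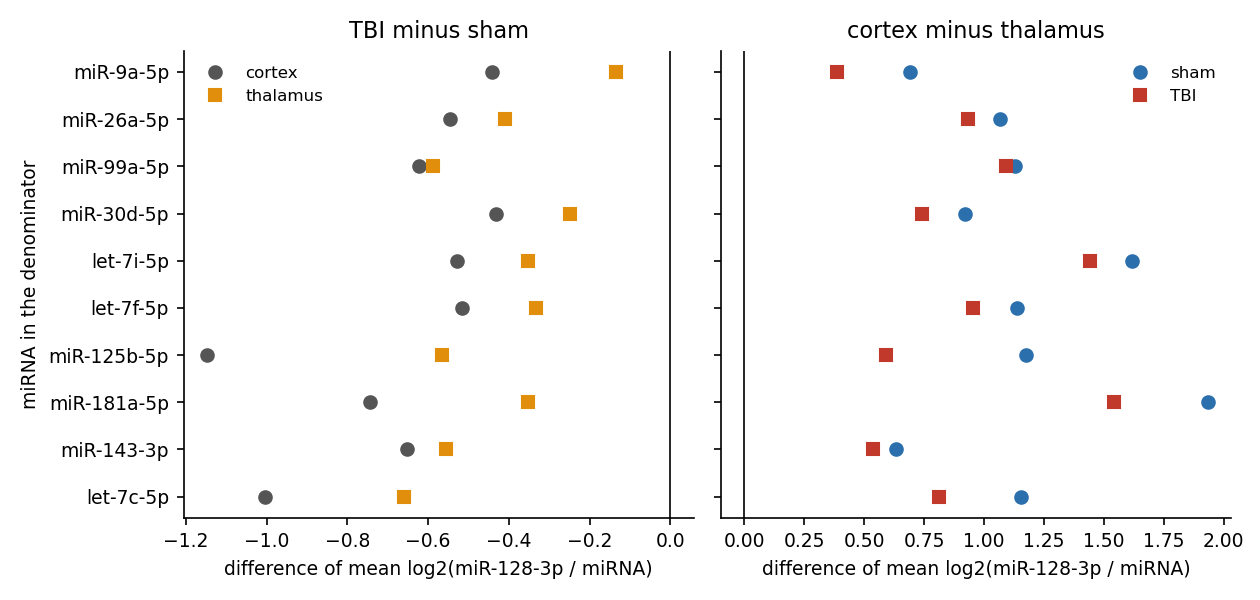
Difference of the mean log2 ratio of miR-128-3p to each of the 10 next most abundant miRNAs (rows), between TBI and sham (left) and between cortex and thalamus (right), 6 libraries per group. Every left-hand point is below 0, from -1.15 to -0.43 in cortex and from -0.66 to -0.13 in thalamus, and every right-hand point is above 0.

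Whether the injury effect differed between cortex and thalamus was tested directly. The interaction log2 value of miR-128-3p, the TBI effect in cortex minus that in thalamus, was -0.50 (SE 0.318, 95% interval -1.15 to 0.16, adjusted p = 1.00 in edgeR). None of the 407 miRNAs was called (0% of those tested), while 16 had an unadjusted p under 0.05 in edgeR and 18 in DESeq2, which likewise called 0. Without sham rat 55 the value was -0.84 (adjusted p = 0.330 in edgeR). Of all miRNAs tested without this rat, 41 had an unadjusted p under 0.05 in edgeR and 0 were called.

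Taken within rats, the cortex minus thalamus difference in share was 7.27 ± 2.02 points in TBI and 12.9 ± 6.75 points in sham rats (SD, n = 6 each, exact permutation test, two-sided, p = 0.0844). For the log2 ratio to the reference miRNAs the same test gave 1.02 ± 0.440 against 1.45 ± 0.580 (SD, n = 6 each, exact permutation test, p = 0.184). With all 12 rats, a difference between the regions in the response of miR-128-3p was therefore not shown.

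This outcome rested on sham rat 55. Without it the sham difference in share was 15.5 ± 2.99 points (SD, n = 5), with each of the 5 sham rats above the 6 TBI rats (exact permutation test, p = 0.00216, the smallest possible). The difference in the ratio to the reference miRNAs was then 1.65 ± 0.341 (SD, n = 5, exact permutation test, p = 0.0368), while the interaction in the edgeR fit did not pass. Leaving out any other rat gave p from 0.0866 to 0.167 for the share (exact permutation tests). These values without rat 55 were computed after its shares had been seen and are given as a description.

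The passenger arms were rare. miR-128-1-5p had 12 to 45 reads per library in TBI cortex (median 36), 21 to 50 in sham cortex (median 29.5), 4 to 18 in TBI thalamus (median 9) and 2 to 24 in sham thalamus (median 9.5). miR-128-2-5p had from 0 to 7 reads in a library and did not pass the filter on low counts, so it has no test. Passing the filter were miR-128-3p and miR-128-1-5p, in 5 of 5 fits each. One passenger read was listed for every 8772 guide reads in TBI cortex, 16892 in sham cortex, 20099 in TBI thalamus and 20174 in sham thalamus, both passenger arms summed over the libraries of a group.

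The reads of miR-128-1-5p outnumbered those of miR-128-2-5p in all 4 groups. Summed over a group, the counts were 197 and 21 reads in TBI cortex, 198 and 13 in sham cortex, 59 and 9 in TBI thalamus and 66 and 10 in sham thalamus. The arm from Mir128-1 thus made up 90.4% (exact 95% binomial interval 85.7% to 93.9%), 93.8% (89.7% to 96.7%), 86.8% (76.4% to 93.8%) and 86.8% (77.1% to 93.5%) of the passenger reads, and these intervals, which cover counting error only, overlapped. These are shares of passenger reads and not of guide reads, for which the loci cannot be told apart.

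miR-128-1-5p was higher in cortex than in thalamus. Its level was 18.9 ± 6.63 CPM in sham cortex against 5.31 ± 1.31 CPM in sham thalamus, and 20.0 ± 7.31 CPM in TBI cortex against 5.44 ± 3.03 CPM in TBI thalamus (SD, n = 6 each). The 6 cortex libraries lay above the 6 thalamus libraries in both conditions, as did those of miR-128-3p. This pattern was found for 3.73% of the 375 miRNAs tested in sham and 4.4% of the 386 tested in TBI rats. The log2 fold change was 2.13 in sham rats (SE 0.263, adjusted p = 2.24e-05 in edgeR) and 2.05 in TBI rats (SE 0.386, adjusted p = 0.00144 in edgeR), corresponding to 4.37-fold and 4.15-fold. In these fits 24.3% of the miRNAs tested in sham and 21% in TBI rats were called.

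Between TBI and sham rats no difference in miR-128-1-5p was shown. In cortex the lowest, median and highest levels were 12.0, 18.1 and 32.8 CPM in TBI rats and 11.3, 16.4 and 29.5 CPM in sham rats, which overlapped throughout. The log2 fold change was -0.06 (95% interval -0.65 to 0.53, adjusted p = 0.921 in edgeR), an interval that does not reach the -0.75 of the guide strand but overlaps the interval of the guide, -1.10 to -0.40. In thalamus it was -0.12 (95% interval -0.87 to 0.62, adjusted p = 0.962 in edgeR), and without sham rat 55 it was -0.046 (adjusted p = 0.970 in edgeR).

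The arm ratio compares passenger and guide within a library. miR-128-1-5p reads per 1000000 miR-128-3p reads were 106 ± 36.7 in TBI cortex, 74.0 ± 34.2 in sham cortex, 50.3 ± 30.6 in TBI thalamus and 40.2 ± 13.9 in sham thalamus (SD, n = 6 each). On the log2 scale, with 0.5 reads added to the passenger count, the TBI minus sham difference was 0.59 in cortex (p = 0.119 in the two-sided exact permutation test, adjusted p = 0.166 over the 12 exact tests) and 0.13 in thalamus (p = 0.792, exact permutation test). Without sham rat 55 the thalamic value was -0.036. The cortical difference was above the SD of the TBI group (0.476) and below that of the sham group (0.689). Neither test passed, so a different response of the arms to injury was not shown.

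Between regions the arm ratio was higher in cortex by 1.21 in TBI rats, in 6 of 6 rats (exact sign-flip permutation test, p = 0.03125, the smallest possible, adjusted p = 0.0536). In sham rats the difference was 0.75, positive in 5 of 6 rats (p = 0.125, exact sign-flip permutation test). Rat 55, whose thalamic library held 2 reads of this arm, had the largest sham value, 2.34, and without it the mean was 0.44. At 2 to 24 reads a library in thalamus, each ratio has a wide counting interval: for sham rat 55, with 2 reads, it ran from 2.25 to 67.0 reads per 1000000 guide reads.

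**Figure D4:**
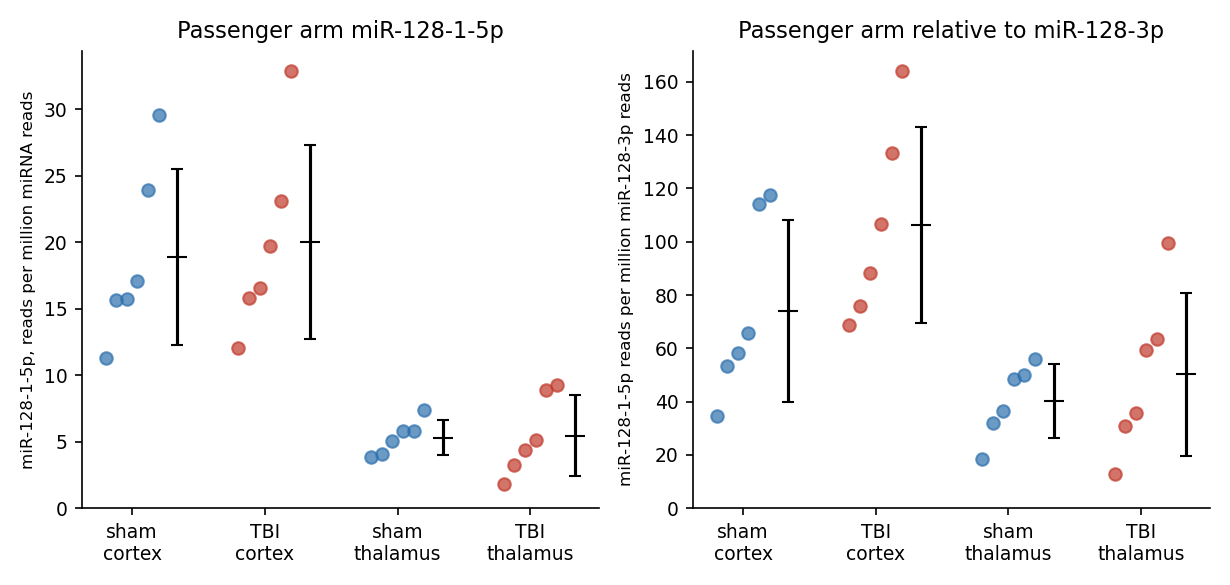
Level of the passenger arm miR-128-1-5p per library, per 1000000 miRNA reads (left) and per 1000000 miR-128-3p reads (right), with libraries of a group in ascending order; black bars show mean ± SD of 6 libraries. On the left the cortex libraries (11.3 to 32.8) lie above all thalamus libraries (1.78 to 9.29); on the right the TBI and sham groups overlap in both regions.

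The seed relatives did not follow the guide strand past the threshold. miR-27b-3p, the more abundant of the 2, had a mean of 6211 CPM in sham cortex, 7854 in TBI cortex, 9369 in sham thalamus and 9999 in TBI thalamus. Its log2 fold change was 0.13 for injury in cortex (adjusted p = 0.558 in edgeR) and -0.20 for cortex against thalamus in sham rats (adjusted p = 0.303 in edgeR). miR-27a-3p had 0.03 and 0.32 in these comparisons (adjusted p = 0.912 and 0.208 in edgeR), and neither was called in any of the 5 fits.

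The other neuron-enriched miRNAs were counted beside the cortical decrease. Of the 11, none was higher and 1 was lower in TBI cortex, beside 11 higher and 10 lower of all 371 miRNAs tested. The 1 lower was miR-132-3p (log2 fold change of -0.55, adjusted p = 0.0371 in edgeR). The median of the 11 neuron-enriched miRNAs was -0.17 beside 0.05 over all miRNAs tested. miR-124-3p had a log2 fold change of 0.15 and miR-9a-5p -0.27 (adjusted p = 0.611 and 0.260 in edgeR). The summed level of the 11 was 96273 to 145004 CPM in TBI cortex and 121543 to 144946 CPM in sham cortex, so the groups overlapped. Most of this sum was again miR-9a-5p, with means of 94831 CPM in TBI and 98085 in sham cortex.

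The summed level of 6 miRNAs of microglia and leukocytes ran from 950 to 1493 CPM in sham and from 1508 to 2334 CPM in TBI cortex. The narrow gap lay between sham rat 55 and TBI rat 56. Most of the sum was miR-150-5p (means of 809 CPM in sham and 1287 in TBI cortex) and miR-146a-5p (305 and 558 CPM). The sum therefore does not describe the 6 as a class. In the cortical fit the median log2 fold change of the 6 was 0.65, beside 0.05 over all miRNAs tested, with adjusted p from 0.0532 to 0.264 (edgeR), and none of them was at 0 in all libraries of a group. In thalamus 2 of them were higher in TBI rats, the inflammation-induced miR-146a-5p and miR-155-5p (log2 fold changes of 1.04 and 1.45, adjusted p = 0.0207 in edgeR for both). These were the 2 miRNAs called there, of 390 tested. The part of these cells in the share of miR-128-3p was not tested.

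The 3 oligodendrocyte miRNAs had a median log2 fold change of 0.14 between TBI and sham cortex, and their summed level was 3401 to 4584 CPM in TBI cortex. Of the vessel and blood list, 6 of 7 miRNAs were listed, with median log2 fold changes of -0.0023 in cortex and 0.25 in thalamus. The 4 reference miRNAs had medians of 0.04 in cortex and 0.02 in thalamus.

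The choroid plexus list, led by miR-204-5p, reached 16156 CPM in the thalamus of TBI rat 45, which had the lowest miR-128-3p share of its group. In the thalamus of sham rats 34 and 50 it was 5077 and 5966 CPM, against at most 2185 CPM in the other 9 thalamus libraries. The part of this tissue was not tested. Without TBI rat 45 the thalamic injury log2 fold change of miR-128-3p was -0.13 (adjusted p = 0.994 in edgeR). Of 4 miRNAs of heart, muscle and liver, miR-208a-3p was at 0 in all 24 libraries and miR-122-5p, the liver miRNA, averaged between 4.31 and 6.76 CPM over the groups. The muscle miRNAs were present: miR-1-3p averaged 552 CPM in sham cortex, 410 in TBI cortex, 415 in sham thalamus and 224 in TBI thalamus, and miR-133a-3p between 30.0 and 85.3 CPM. miR-1-3p was lower in TBI cortex (log2 fold change of -0.62, adjusted p = 0.0361 in edgeR) and, in both conditions, higher in cortex than in thalamus (0.80 and 0.93, adjusted p = 0.00382 and 0.0240 in edgeR). miR-133a-3p was likewise higher in cortex (0.96 in sham and 1.54 in TBI rats, adjusted p = 0.0206 and 0.00497 in edgeR). Between TBI and sham cortex no difference was shown for miR-133a-3p (log2 fold change of 0.05, adjusted p = 0.912 in edgeR). Thus miR-1-3p moved in the same direction as miR-128-3p in these comparisons, whereas miR-133a-3p did so between regions and not for injury in cortex. For injury in thalamus the values of miR-1-3p and miR-133a-3p were -0.87 and -0.64. Neither passed the threshold there (adjusted p = 0.576 and 0.774 in edgeR). The part of their source tissue was not tested.

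The miRNAs whose pattern was most like that of miR-128-3p were found by the SD of the log2 ratio of the counts over the 24 libraries, among 253 miRNAs of at least 50 CPM on average, for which the median SD was 0.87. The lowest values were 0.18 for miR-146b-5p, 0.29 for miR-708-3p, 0.32 for miR-212-5p, 0.34 for miR-674-3p and 0.34 for miR-873-5p. With a minimum of 500 CPM, 3 of these 5 were again among the first 5 and miR-146b-5p was again the first. The libraries share their depth and composition between miRNAs, so these values are a description.

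miR-146b-5p had the most constant ratio. Its mean level was 6023 ± 596 CPM in sham cortex, 5027 ± 358 in TBI cortex, 3777 ± 1088 in sham thalamus and 3160 ± 572 in TBI thalamus (SD, n = 6 each). Between 31.8 and 51.0 reads of miR-128-3p were listed for each of its reads in any library. Because it was chosen for a constant ratio over these 24 libraries, its group order and its high level in the thalamus of sham rat 55 (5913 CPM beside at most 3696 CPM in the other 5) follow from the choice, and no test is given for it.

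The other 4 were chosen in the same way and are likewise described without a test. miR-212-5p, which is made from the same cluster as miR-132, had log2 fold changes of -0.96 for injury in cortex and 1.84 for cortex against thalamus in sham rats. The corresponding values were -0.46 and 0.72 for miR-708-3p, -0.56 and 0.79 for miR-674-3p and -0.27 and 1.09 for miR-873-5p.

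**Figure D5:**
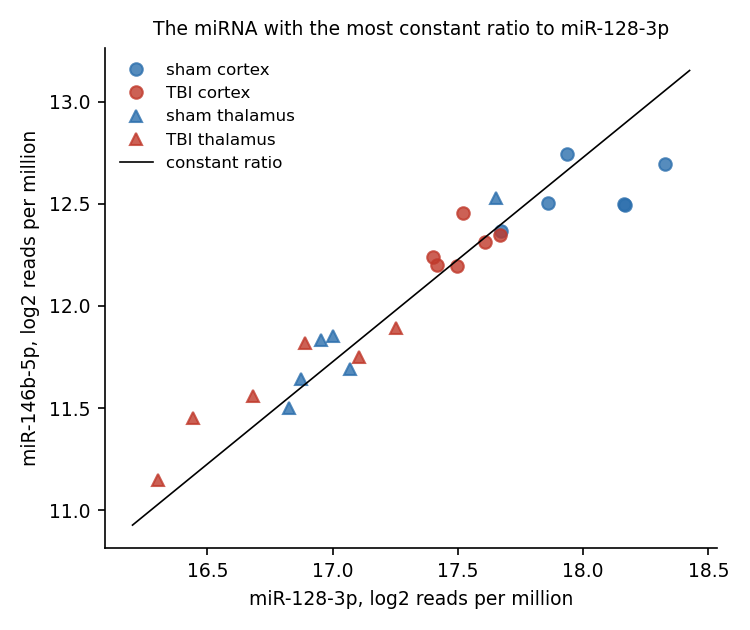
Level of miR-146b-5p against that of miR-128-3p (both log2 reads per 1000000 miRNA reads) in the 24 libraries; circles are cortex, triangles thalamus, and the line marks a constant ratio. The points follow the line with an SD of 0.18 on the log2 scale, and the sham thalamus library of rat 55 lies apart from the other thalamus libraries, among the cortex points.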

How the data were processed

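Small RNA libraries were prepared from 300 ng of total RNA with a NEBNext kit and sequenced on a NextSeq 500. Per the study's methods, the authors trimmed adapters, checked reads with FastQC, mapped them to rat build RGSC3.4 with miRBase 20 and tested with edgeR. The aligner and counter are not given in the sources used here. The authors deposited miRNA read counts per library, used here as they are. They also deposited small RNA values labelled as corrected, read here as CPM of miRNA and tRNA features. From these the total of listed small RNA reads was recovered. No other corrected values were used.

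Groups followed the labels. Counts were tested with edgeR 4.0.16 (R 4.3.3; filterByExpr, TMM, glmQLFTest, Benjamini-Hochberg over all miRNAs tested, threshold 0.05); single values by two-sided exact permutation of group labels or, within rats, of signs. DESeq2 1.42.0 and other scalings, filters and left-out rats were alternatives. An SE is the log2 fold change divided by the root of the F statistic. The edgeR steps were tested on simulated data. The members, the gene lists and the tests were chosen with earlier results of these data known. Named are the miR-128 rows, the members of 8 lists, the 10 next most abundant miRNAs and the 5 most alike. Cortex and thalamus of one rat are paired by the animal; their deviations from the group means correlated with a median r of 0.35 (range -0.17 to 0.62 over 12 rats). No pair of libraries in a group was alike within counting noise (chi-square per degree of freedom of at least 35.0).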

Additional observations from a re-analysis of the deposited data

Results flagged for a closer look

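The miR-128-3p share of 20.6% in the thalamus of sham rat 55 lay far from the other 5 libraries of its group, the next of which was 13.8%, with a gap of 0.762 of the group's whole range (Dixon's limit for 6 values is 0.625). It was the 1 value so marked among 24 groups of 6 values examined, where chance alone would mark about 1.2. The cause was not tested.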

How the results depend on the processing

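Of 472 values recomputed under alternatives, 420 were marked as the same. For values with a test this meant the same direction and side of the threshold. Regional values with a rat left out had no test and were judged by a shift under the SD of the within-rat differences. Numbers of miRNAs called were judged by their size, and the likeness by its first miRNA. For miR-128-3p in cortex after injury, the call was lost with the 4 reference miRNAs (-0.80, adjusted p = 0.120 in edgeR) and with all 24 libraries in one fit (-0.79, adjusted p = 0.103), and the values without each rat ran from -0.89 to -0.63. In thalamus they ran from -0.40 to 0.050, reversed without sham rat 55. The ratio to the reference miRNAs in thalamus passed without miR-3594-3p (-0.35, exact permutation p = 0.0455), and ran from -0.42 to -0.21 without each rat, passing without TBI rat 56 (exact permutation p = 0.0368). The thalamic arm ratio ran from -0.12 to 0.46 without each rat. The within-rat regional difference, TBI minus sham, ran from -8.19 to -4.31 points for the share and from -0.62 to -0.30 for the reference ratio, passing without sham rat 55 in both, and from 0.16 to 0.78 for the arm ratio; these fits were added after seeing the data. With 5 rats the sign-flip test cannot go below 0.0625, so these region values have no test.

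miR-128-1-5p never passed for injury or interaction. Its cortical injury value was 0.14 with library size, 0.013 with upper quartile factors and 0.11 with listed small RNA reads, and ran from -0.27 to 0.073 without each rat; in thalamus it ran from -0.29 to 0.15. Its interaction was -0.019 with relative log expression, -0.025 with upper quartile factors and -0.041 with TMM computed without miR-128-3p, an alternative chosen after seeing the data, and ran from -0.27 to 0.23 without each rat.

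The number of miRNAs called in cortex after injury was 39 with library size (36 higher, 3 lower, beside 11 and 10), 37 with listed small RNA reads (33 and 4), 35 with DESeq2, 5 in one fit of all libraries and 1 with the reference miRNAs, and ran from 4 to 30 without each rat; upper quartile factors gave 20 and 5, and library size without miR-128-3p reads 12 and 6. In thalamus the 2 calls became 0 with the reference miRNAs, 1 with a mean of at least 50 counts, 5 in one fit and 0 to 2 without each rat. Between regions in sham rats 91 became 147 with library size (22 and 125, beside 41 and 50) and 146 with listed small RNA reads (22 and 124), and was 98 with library size without miR-128-3p reads (28 and 70). In TBI rats the split was 30 and 51, beside 45 and 25 with the reference miRNAs, 47 and 37 with upper quartile factors, 39 and 43 with library size without miR-128-3p reads and 46 and 36 with TMM without miR-128-3p. With the replicate block, the rat, 81 became 150 in TBI rats and 91 became 81 in sham rats. The block changed no call of miR-128. The causes were not tested. The passenger arm is limited by depth, at 2 to 24 reads in thalamus.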
